A study of Rattus norvegicus with 25 samples.

Results

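The Dlk1-Dio3 cluster is an imprinted stretch of rat chromosome 6 that carries one of the largest groups of miRNAs in the genome. Its members were taken by name, as every table entry for the 43 miRNA numbers of the cluster with any letter or arm. This gave 84 of 764 mature miRNA entries, from 45 hairpins, and 2 of the 43 numbers had no entry. Small RNA had been sequenced from mitochondria of the red gastrocnemius, an oxidative part of a hindlimb muscle, of male Wistar-Kyoto rats. One group of 13 rats, allocated at 5 weeks of age, was trained by treadmill running over 4 weeks with 5 sessions per week. The other 12 were handled in the same way but stood on an unmoving belt (sedentary). Mitochondria of both groups had been incubated with RNase A, which digests RNA outside the organelle, so all 25 libraries share that step and none came from whole muscle.

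In mammals the miRNAs of this locus are transcribed from the maternal chromosome, together with the long non-coding RNA Meg3, while the paternal chromosome expresses the protein-coding genes Dlk1, Rtl1 and Dio3. A miRNA hairpin gives 2 arms, named 5p and 3p, of which 1 is usually kept as the active strand, and bases 2 to 8 of that strand (the seed) pair with target mRNAs. In skeletal muscle the cluster is known for its activity in satellite cells and regenerating fibres and for its decline with maturation.

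The members that carried nearly all of the signal are printed with the seed in capitals. Sequences are from RefSeq (build GRCr8), which held 82 of the 84 entries. The first 5 are those with enough counts for a test between the groups. miR-382-5p had 1109 counts, above the 987 of miR-485-5p, but reached 10 counts in only 8 libraries and did not enter that test.
miR-127-3p: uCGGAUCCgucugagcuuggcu
miR-379-5p: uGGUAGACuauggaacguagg
miR-541-5p: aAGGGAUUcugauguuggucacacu
miR-134-5p: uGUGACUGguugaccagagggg
miR-485-5p: aGAGGCUGgccgugaugaauuc
miR-382-5p: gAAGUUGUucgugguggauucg
No seed was shared. Of the 27 members with both a count and a sequence, 0 had bases 2 to 8 in common with any of the other entries among 687 with a sequence. The closest pair was miR-379-5p and miR-411-5p, whose bases 3 to 8 were identical. The 2 hairpins lie next to each other.
miR-411-5p: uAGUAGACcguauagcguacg

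Library totals ranged from 12181 to 202388 counts, and trained and sedentary totals overlapped. Sedentary library 19 had the lowest total, and 0 counts in a single library allowed between 14.8 and 246 CPM (CPM, the count scaled to the library total; 3 counts were taken). Such limits and the intervals of arm shares cover counting error only, since PCR reads without molecular identifiers are not independent molecules. Of 6 muscle fibre miRNAs 5 had a count, together 9.15% to 32.5% of each library, and miR-208b-3p was at 0. Each library has a title number of its own. The labels give neither litter nor preparation day, so p-values measure the spread between these libraries.

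Of the 84 entries, 28 were counted in 1 library or more and 56 were at 0 throughout. That is 33.3% of the cluster, beside 34.1% of the other entries. The cluster held 45814 of all counts, or 2.19%, and miR-127-3p alone gave 62.3% of these. miR-127-3p, miR-379-5p, miR-541-5p and miR-134-5p together gave 86.5%. miR-127-3p had 28542 counts and ranked 17 of the 764 entries. miR-379-5p ranked 37 with 5480 counts, miR-541-5p 49 with 3097, and miR-134-5p 55 with 2532. The total of all counts includes pairs of entries with near-identical counts. Examples are miR-1-3p with 241423 and miR-3571 with 241335, and miR-378a-3p with 136920 and miR-3557-5p with 137458. Library totals, shares, CPM and ranks were taken with both entries of such pairs kept. miR-133a-3p and miR-133b-3p of the muscle fibre list are also such a pair.

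Counts were spread unevenly along the locus. The 9 hairpins from miR-493 to miR-136 gave 65.4% of the cluster's counts, and 8 of them had a count. All 5 hairpins that lie inside the RefSeq interval of Rtl1 (miR-431, miR-433, miR-127, miR-434 and miR-136) had counts, 63.9% of the cluster's total. These miRNAs are known as antisense to Rtl1, whose mRNA they match perfectly. The 32 hairpins from miR-379 to miR-410 gave 33.5%, and 13 of them had a count. Within that segment, miR-379 stood at its first hairpin, and miR-382, miR-134, miR-485, miR-541 and miR-409 lay in its distal part. Between them, the miR-376 hairpins, miR-381, miR-487b, miR-539, miR-495 and miR-494 had 0 counts on both arms or their only entry. That stretch was not empty, since miR-543 had 188 counts, miR-411 83, miR-329 75, miR-323 16 and miR-300 7. miR-494 is known as a repressor of Tfam, a factor of mitochondrial DNA transcription. miR-410, miR-369, miR-154 and miR-377 were also at 0. Over all libraries 0 counts allow up to 1.43 CPM. How multiply matching reads and low entries were treated upstream was not given in the sources used here. Each 0 therefore describes the table and not the organelle.

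Most hairpins that had a count and both arms listed were counted on 1 arm only. Of 39 hairpins with both arms listed, 9 had counts on the 5p arm only, 7 on the 3p arm only, 5 on both and 18 on neither. Some of the single arms rest on few counts. miR-770 had 10 on 5p and miR-300 had 7 on 3p. The exact 95% binomial interval of their 5p share was 69.2% to 100% and 0% to 41.0%. miR-127 gave 28542 counts on 3p and 5 on 5p, all 5 from trained library 6. Its 5p share was thus 0.0175% (exact 95% binomial interval 0.00569 to 0.0409). miR-379 had 5480 counts on 5p and 0 on 3p, and miR-541 3097 and 0, miR-134 2532 and 0, and miR-382 1109 and 0. The 3p arm was the only one seen for miR-433, miR-370 with 497 counts, a miRNA known to repress the fatty acid transporter Cpt1a, and miR-543 with 188 counts. miR-493 was the most even hairpin, with 200 counts on 5p and 163 on 3p (5p share 55.1%, exact 95% interval 49.8 to 60.3). These came mostly from different rats. 5p reached 10 counts in sedentary libraries 3 and 4 and trained libraries 13 and 25, 3p in sedentary library 32 and trained libraries 5 and 26. miR-485 also had both arms, with 987 on 5p and 150 on 3p, of which 148 were from sedentary library 8, a library with 1 count of 5p.

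**Figure D1:**
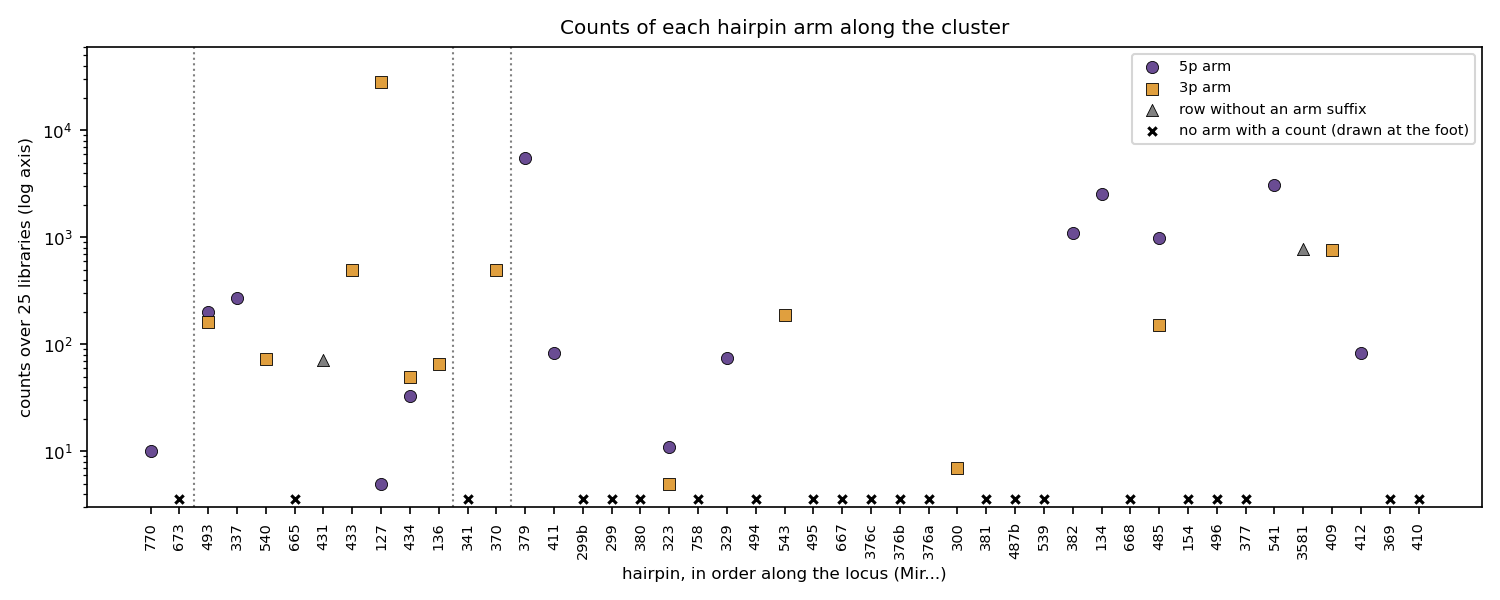
Counts over the 25 libraries for each hairpin arm (log axis), with hairpins in their order along the locus. Dotted lines separate, from the left, miR-770 and miR-673, the miR-493 to miR-136 segment, miR-341 and miR-370, and the miR-379 to miR-410 segment, and crosses at the foot are hairpins with 0 counts. The grey triangle just left of the miR-409a hairpin is miR-409b. miR-127-3p stands highest at 28542 counts, and crosses make up most of the middle of the last segment.

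miR-409 is a single stretch entered from both strands, as 2 hairpins. Both are kept among the 45 hairpins, the 28 members with a count and the 45814 counts of the cluster. miR-409b had 770 counts and miR-409a-3p 762, equal in 23 of 25 libraries and apart by at most 5 counts. The 20 bases of miR-409a-3p are complementary to miR-409b over their whole length, as the capitals show.
miR-409a-3p: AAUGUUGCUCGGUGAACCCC
reverse complement of miR-409b: cgAAUGUUGCUCGGUGAACCCCu
Reads of the 2 entries cannot be told apart without knowing how strand was treated, so miR-409a-3p and miR-409b are reported as uncertain. The same held for miR-3543, which is not a member by number. It overlaps miR-434-3p over 22 bases on the other strand, and both had 50 counts, equal in 25 of 25 libraries. A pair with a partial overlap had unequal counts. miR-3544 (23 bases) overlaps miR-337-5p (21 bases) over 18 bases and had 0 counts beside 272. The remaining overlapping pairs had 0 counts on both strands. Whether the length of the overlap matters was not tested. Besides the members, 16 other entries lay between the outermost hairpins. Of these 4 had a count, 146 counts in all.

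The members with a count were richer in G and C than those at 0. The median GC content was 54.5% over the 27 with a count and a sequence, from 36.4% to 72.7%, and 45.5% over the 55 at 0. Over all entries with a sequence it was 47.8%, the same as over all entries with a count. A 5′ U, which Argonaute proteins are known to favour, opened 37.0% of the members with a count and 32.7% of those at 0, beside 43.8% of all entries with a count. These are descriptions with no test.

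Most values of the members were 0, and of the rest more were at 20 or above than from 1 to 19. Of the 700 values of the 28 members, 459 were 0 (65.6%), 69 were from 1 to 9, 22 from 10 to 19 and 150 were 20 or more. Among the low ones 46 were exactly 1. The other 232 entries with a count had 55.4% of values at 0 and 10.8% from 1 to 9, beside 9.86% for the members. Among values of 1 or more, 69 of 241 were from 1 to 9 for the members. For the other entries 625 of 2584 were, a smaller part. 5 members reached 10 counts in at least 13 libraries, 5 in 7 to 12 libraries, 7 in 2 to 6 and 7 in a single library, and 4 in none. The CPM of miR-433-3p in its 10 such libraries was 233 to 1985, and that of miR-382-5p in its 8 such libraries 272 to 2708.

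Single libraries made up the whole signal of many low members. miR-431, known to act on Pax7 in satellite cells, had 71 counts, all in sedentary library 4 (2326 CPM). miR-434-5p had 33 counts, all in sedentary library 32. miR-412-5p had 83 counts, 98.8% of them in trained library 14. miR-540-3p had 73 counts, 71 of them in sedentary library 11. By contrast miR-770-5p, from a hairpin inside the Meg3 interval, had 10 counts spread over 8 libraries and never more than 3.

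**Figure D2:**
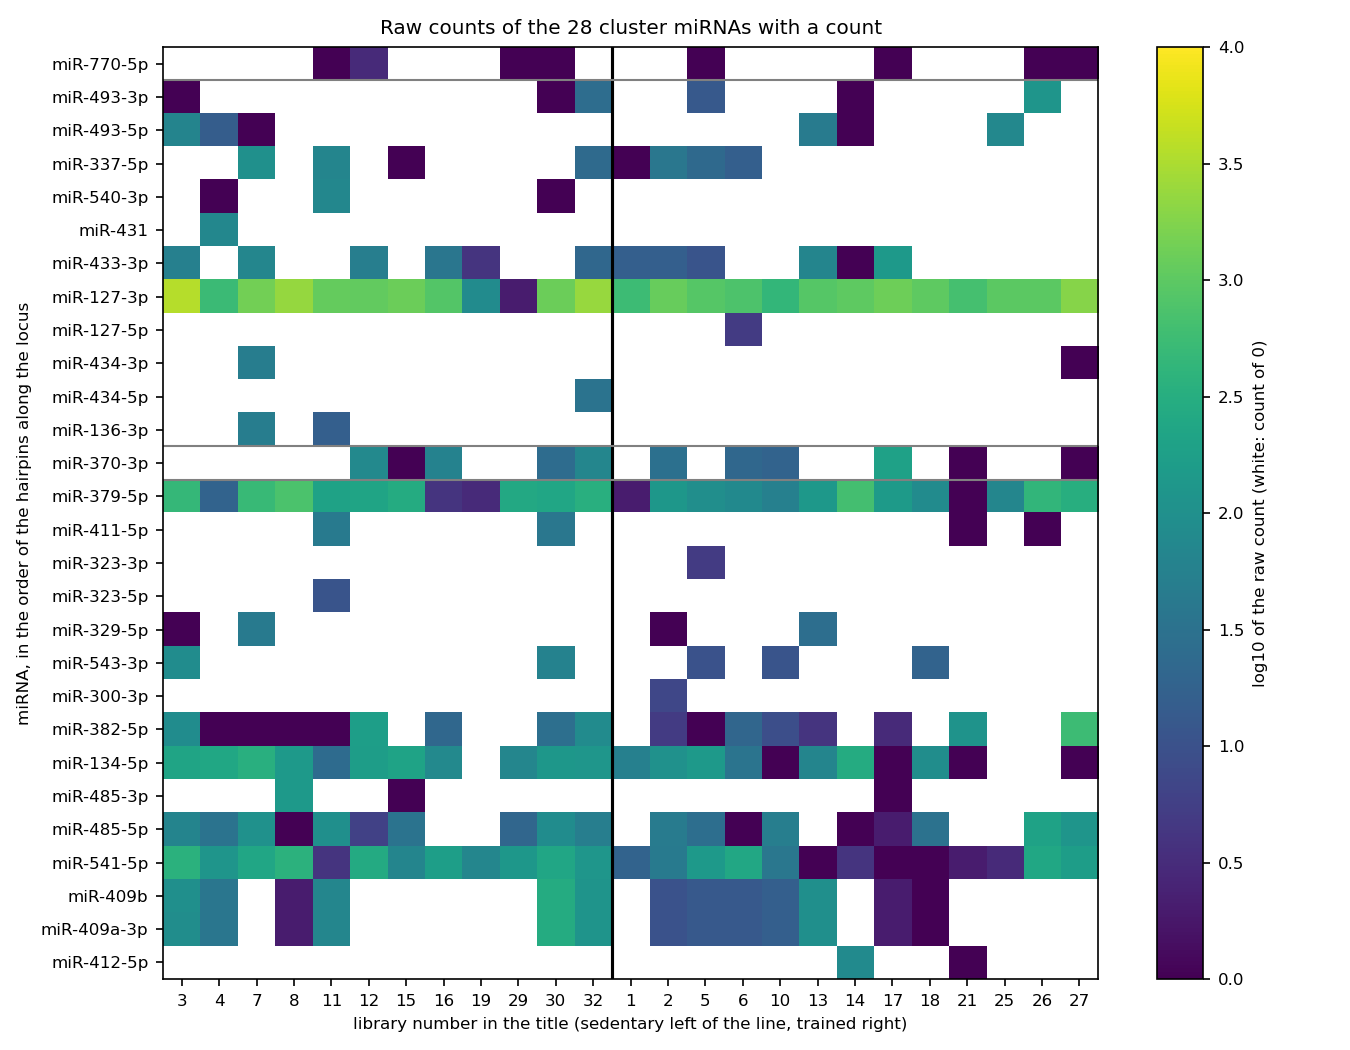
Raw counts of the 28 members with a count (rows, in locus order, grey lines between segments) in the 12 sedentary and 13 trained libraries (columns, by title number), as log10 with white for 0. miR-127-3p is darkest in sedentary library 29, with 2 counts, and miR-541-5p is dark, with 1 to 4 counts, in 6 trained libraries and in sedentary library 11.

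The design compares trained with sedentary rats, to ask how endurance training is reflected in miRNAs of muscle mitochondria. 5 members had enough counts for the edgeR quasi-likelihood test among 76 entries tested, and 0 of the 5 passed (Benjamini-Hochberg adjusted p under 0.05 over all 76 entries). Over all 76 entries 0% passed as well. At an unadjusted p under 0.05 there was 0 of the 5 members and 1 of 76 entries (1.32%). DESeq2 also called 0, among 235 entries with an adjusted p (0%), and had 3.08% of entries and 0 members under an unadjusted p of 0.05. As fitted, 2 of the 5 were higher and 3 lower in trained rats with a median log2 fold change of -0.53. Over the 76 entries 37 were higher and 39 lower, with a median of -0.0080. Fewer cells or organelles of a kind and less RNA in each cannot be told apart in such libraries. The summed share of the muscle fibre miRNAs had a median of 23.6% in trained and 16.4% in sedentary libraries, and that of the smooth muscle miRNAs 2.42% and 3.22%. In the same order, medians were 0.450% and 0.391% for connective tissue and 0.490% and 0.537% for endothelium. None of these differences was tested. The relation of each tested member to these lists across libraries is given with the marker lists.

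miR-127-3p had the narrowest interval of the 5. Its level was 3953 to 33039 CPM in trained rats (median 14051) and 26.3 to 33384 CPM in sedentary rats (median 16893). The groups overlapped throughout, and the lowest value by far was that of sedentary library 29, with 2 counts of 76048. The next lowest sedentary library was at 6978 CPM. Means were 15694 ± 8876 (SD, n = 13) and 16782 ± 9339 CPM (SD, n = 12), and without library 29 the sedentary mean was 18305 ± 8081 (SD, n = 11). The edgeR log2 fold change was 0.021 (SE 0.38, 95% interval -0.75 to 0.79, adjusted p = 0.999). In linear terms the interval runs from 0.594-fold to 1.73-fold. Without library 29 the value was -0.031 (SE 0.30, edgeR adjusted p = 0.981). Sedentary library 29 had the highest summed share of the 6 muscle fibre miRNAs (32.5%) and the lowest sedentary share of the 2 smooth muscle miRNAs (0.828%). Its connective tissue share was 0.118% (sedentary median 0.391%, lowest 0.0161%). Its endothelial share was 0.502% (sedentary median 0.537%, lowest 0.249%). In that library miR-379-5p was at 3393 CPM, above its sedentary median. miR-541-5p was at 1736, miR-134-5p at 907 and miR-485-5p at 276 CPM, each below its sedentary median but above the lowest sedentary value.

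miR-541-5p had the largest difference of the 5 members. Its level was 11.7 to 9403 CPM in trained rats (median 709) and 57.3 to 5665 CPM in sedentary rats (median 2762). In trained libraries 13, 14, 17, 18, 21 and 25 it had 1 to 4 counts (11.7 to 32.7 CPM). All other trained libraries had at least 19 counts, and so had all sedentary libraries except library 11, with 4. At 10 or more counts it was thus present in 7 of 13 trained and 11 of 12 sedentary libraries. That difference did not pass Fisher's exact test (two-sided, p = 0.0730, adjusted p = 1 over 242 entries, of which 0% passed and 0.826% had an unadjusted p under 0.05). Among 12181 counts drawn from each library it was seen in 7 of 13 and 12 of 12 (Fisher's exact test, p = 0.0149, adjusted p = 1), where 1.22% of entries had an unadjusted p under 0.05. The edgeR log2 fold change was -1.22 (SE 0.86, 95% interval -2.94 to 0.50, adjusted p = 0.916), with means of 1449 ± 2609 (SD, n = 13) and 2753 ± 1711 CPM (SD, n = 12). The highest value of all was in a trained rat, library 6.

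The low trained libraries of miR-541-5p were neighbours by title number, and depth in trained rats also moved with that number. In trained rats totals were 26793 to 43510 up to number 13 and 72553 to 202388 above it. Sedentary totals were 30527 to 186006 and 12181 to 106661, respectively. The boundary was taken from an earlier look at these totals. The log2 fold change of miR-541-5p was -0.21 (SE 0.96, edgeR adjusted p = 0.996) at numbers 1 to 13 and -2.42 (SE 1.52, edgeR adjusted p = 0.752) at numbers 14 to 32. The difference between these 2 values was not tested. In trained rats number and depth cannot be told apart, whereas sedentary totals overlapped across the boundary.

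miR-134-5p, known for limiting dendritic spine size through Limk1, showed the same kind of division. It ranged from 0 to 3726 CPM in trained rats (median 1264) and from 0 to 8026 CPM in sedentary rats (median 1637). Trained libraries 25 and 26 had 0 counts and trained libraries 10, 17, 21 and 27 had 1, whereas of the sedentary libraries library 19 had 0 and the others at least 25. The groups overlapped above those values. At 10 or more counts it was present in 7 of 13 trained and 11 of 12 sedentary libraries, as was miR-541-5p (Fisher's exact test, p = 0.0730, adjusted p = 1). The low trained libraries of both miRNAs were the same only for 17, 21 and 25. The edgeR log2 fold change of miR-134-5p was -0.87 (SE 0.95, 95% interval -2.78 to 1.05, adjusted p = 0.965).

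With limma-voom the log2 fold change was -2.81 for miR-134-5p (SE 1.06, p = 0.0108, limma adjusted p = 0.169) and -2.42 for miR-541-5p (SE 0.97, p = 0.0159, limma adjusted p = 0.169). Both failed the adjustment. With limma-voom 18.4% of all entries were under an unadjusted p of 0.05, 14 of 76, and 2 of the 5 members.

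miR-379-5p ranged from 5.87 to 5279 CPM in trained rats (median 2095) and from 107 to 7821 CPM in sedentary rats (median 2907). Trained libraries 1 and 21 had 2 and 1 counts, and sedentary libraries 16 and 19 had 4 and 3, so both groups held low libraries. The log2 fold change was -0.53 (SE 0.69, 95% interval -1.91 to 0.85, edgeR adjusted p = 0.971), and -0.025 without sedentary library 8, which had the highest value.

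miR-485-5p ranged from 0 to 1523 CPM in trained rats (median 37.2) and from 0 to 1403 CPM in sedentary rats (median 538). It was at 0 in 4 trained and 2 sedentary libraries, and 6 of 13 against 8 of 12 had at least 10 counts (Fisher's exact test, p = 0.428, adjusted p = 1). The log2 fold change was 0.070 (SE 1.00, 95% interval -1.94 to 2.08, edgeR adjusted p = 0.999), and its sign was negative with limma-voom and when scaled by total counts. Its means were 472 ± 605 (SD, n = 13) and 491 ± 451 CPM (SD, n = 12).

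**Figure D3:**
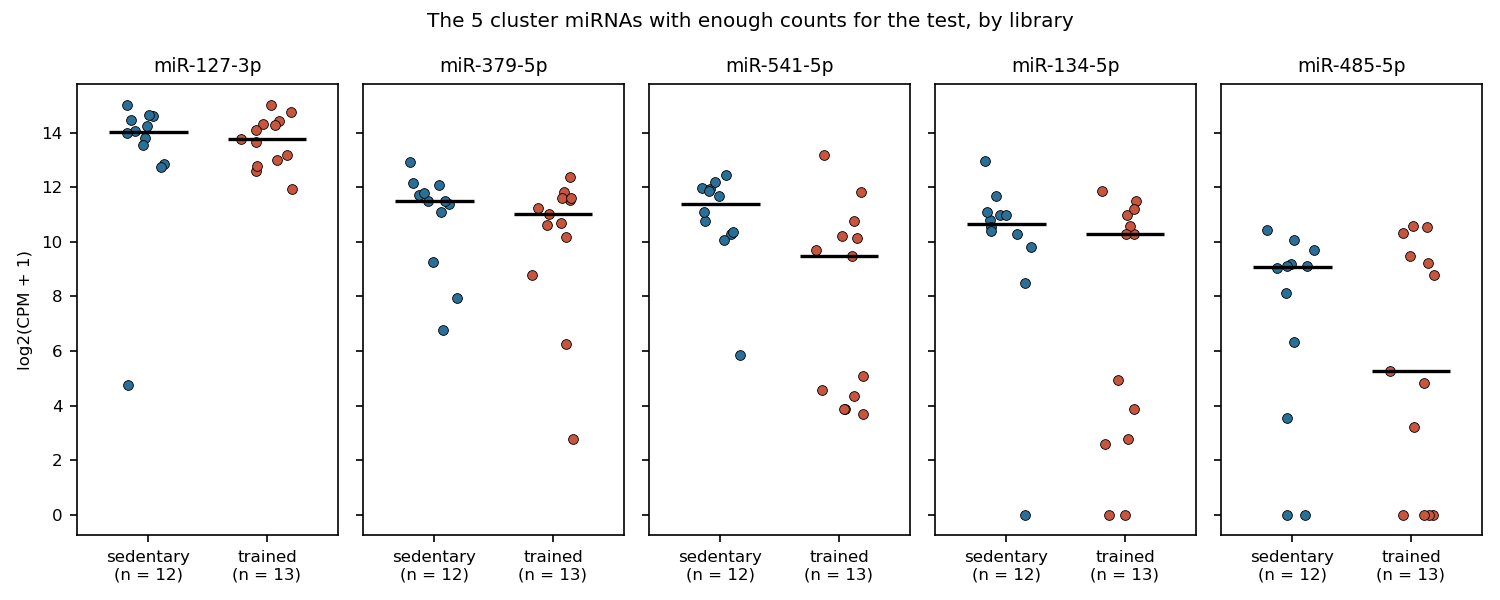
Level of the 5 tested members in each library, as log2(CPM + 1), for 12 sedentary and 13 trained rats, with the median as a bar. The groups overlap in all 5 panels, 1 sedentary library is far below the rest for miR-127-3p, and 6 trained libraries form a low set for miR-541-5p and another for miR-134-5p.

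**Figure D4:**
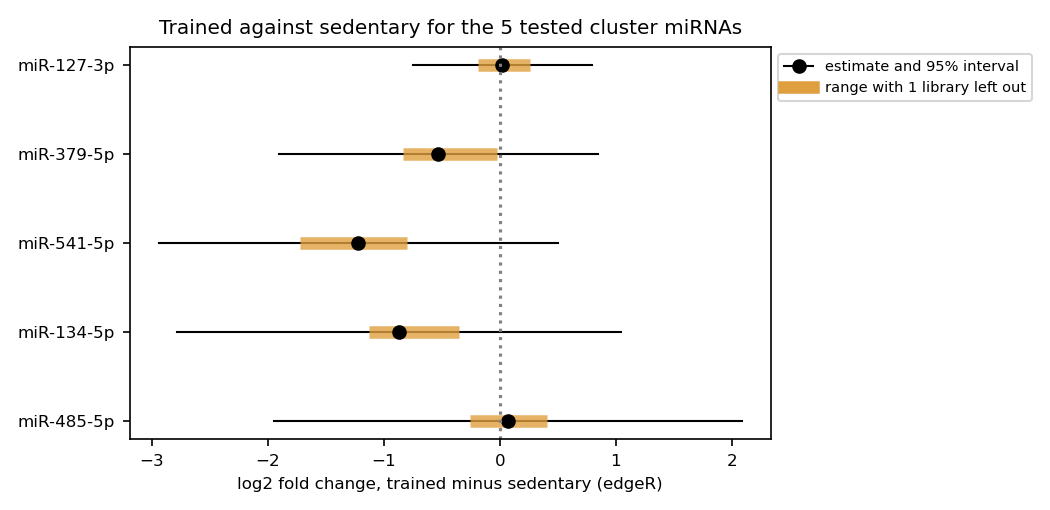
Log2 fold change of the 5 tested members, trained minus sedentary, with the edgeR estimate (points), its 95% interval (thin lines) and the range when each of the 25 libraries is left out in turn (thick bars). All intervals include 0, and the narrowest is that of miR-127-3p, from -0.75 to 0.79.

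The other 23 members with a count did not enter the test. miR-382-5p was at 10 or more counts in 3 trained and 5 sedentary libraries, and 49.4% of its 1109 counts were from trained library 27. miR-409a-3p and miR-409b did so in 5 and 5 libraries, miR-370-3p in 4 and 4, and miR-433-3p in 5 and 5. miR-337-5p did so in 3 and 3, miR-493-5p in 2 and 2, miR-543-3p in 3 and 2, and miR-493-3p in 2 and 1. Presence at 1 or more counts was tested for all 260 entries with a count. 0 of the 28 members and 0% of entries passed Fisher's exact test after adjustment, and 2.31% of entries, none of them members, had an unadjusted p under 0.05. The lowest p among the members was for miR-540-3p, seen in 0 of 13 trained and 3 of 12 sedentary libraries (Fisher's exact test, p = 0.0957, adjusted p = 1).

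Without a filter on low counts the same edgeR test called 12 of the 28 members, 8 lower and 4 higher in trained rats, where it called 25.4% of all 260 entries (15.4% lower and 10% higher). All 12 were members with counts in 1 to 4 libraries. miR-431, one of 4 that shared the lowest adjusted p, was at -6.60 on the log2 scale (SE 1.87, edgeR adjusted p = 0.00758) that rests on 71 counts in 1 library. Of the 66 entries called in all, 57 had counts in at most 4 libraries. A fitted value against a group at 0 is set by the prior count and gives no fold.

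As a share of the library, the cluster took 0.466% to 4.54% in trained rats (2.32% ± 1.30, SD, n = 13) and 0.635% to 4.82% in sedentary rats (2.82% ± 1.20, SD, n = 12). Trained libraries 21 and 25 and sedentary library 29 were under 1%. Without miR-127-3p, a division made after the values were seen, the shares were 0.752% ± 0.499 (SD, n = 13) and 1.14% ± 0.384 (SD, n = 12). The lowest of these were again trained libraries 21 and 25, at 0.0705% and 0.0925%, while the sedentary libraries ran from 0.624% to 1.91%. For the whole cluster the difference was 0.139 percentage points at title numbers 1 to 13 and -0.987 at 14 to 32. The number of members with a count was 9.31 ± 2.81 per trained library (SD, n = 13) and 10.0 ± 3.33 per sedentary library (SD, n = 12). At equal depth, 12181 counts drawn from each library, it was 6.85 ± 3.56 and 8.17 ± 3.24. These sums over chosen members carry no test.

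Although the cluster's miRNAs are thought to come from long shared transcripts, the 5 tested members did not vary together across libraries to a degree that passed the test. For 4 of the 5 members the libraries fall into a set with almost no counts and a set with many. Correlations of the 10 pairs are therefore given among libraries with at least 10 counts of both, a choice made after the data were seen. Pearson's r ranged from -0.257 to 0.426 over 11 to 20 libraries, positive in 8 of 10 pairs. The lowest adjusted p was 0.557 in permutation tests over 45 relations computed. Spearman's rho ranged from -0.308 to 0.359 (permutation tests, lowest p = 0.121, lowest adjusted p = 0.683 over the 10 pairs). By r in these libraries the first pair was miR-127-3p with miR-379-5p, at r = 0.426 (permutation p = 0.0619) and rho = 0.359 (permutation p = 0.121) over 20 libraries. This pair was at r = 0.338 without the 2 libraries farthest from the median of miR-379-5p, and its Pearson permutation p over all 25 libraries was 0.967. In every pair that distance was measured only on the member named last. The order of the pairs was not stable. Without the 2 farthest libraries miR-134-5p with miR-485-5p was at r = 0.698 over 9 libraries, miR-379-5p with miR-134-5p at 0.562 over 14 and miR-379-5p with miR-485-5p at -0.417 over 12. Over all 25 libraries 0 of the 10 pairs passed. The lowest Pearson p there was that of miR-379-5p with miR-485-5p (r = 0.415, permutation p = 0.0379, adjusted p = 0.341). The r of that pair was -0.203 among the 14 libraries with at least 10 counts of both. The lowest Spearman p of the pairs over all 25 libraries was that of miR-127-3p with miR-134-5p (rho = 0.521, permutation p = 0.0087, adjusted p = 0.196). All libraries share the scaling to their own total, so these values are relative.

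Markers of other cells were compared in the same family of 45 relations, each tested member with the total count and with 6 lists. 1 relation passed over all 25 libraries. It was miR-485-5p with the summed share of the 4 connective tissue miRNAs (miR-199a-3p, miR-199a-5p, miR-214-3p and miR-21-5p; permutation tests, adjusted p = 0.0292 for Pearson and 0.0220 for Spearman). Over the 25 libraries r was 0.609 and rho 0.652. The relation did not hold within either set of libraries. Among the 14 with at least 10 counts of miR-485-5p, r was 0.303 (permutation p = 0.298) and rho 0.319 (permutation p = 0.265), and among the other 11 r was 0.103. The connective tissue list had 4 of 4 miRNAs with a count, at 0.0531% to 0.870% of trained and 0.0161% to 1.61% of sedentary libraries. Without the 2 libraries farthest from the list's median the relation of miR-485-5p lost its call (permutation adjusted p = 0.0520). Its r was then 0.619 over 23 libraries, so the size of r did not fall with the call.

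Relations to the muscle fibre list passed in other settings. That of miR-127-3p had r = -0.455 (permutation p = 0.00757, adjusted p = 0.164) and rho = -0.315 (permutation p = 0.127) over 25 libraries. It passed with total counts only (r = -0.597, permutation adjusted p = 0.00495) and was at r = -0.0947 without sedentary libraries 19 and 29. That of miR-541-5p did not pass over 25 libraries (permutation p = 0.0178 before adjustment), and passed without the same 2 libraries (permutation adjusted p = 0.0054). Within its sets of libraries r was 0.153 over the 18 with at least 10 counts and -0.364 over the other 7. To the smooth muscle list 0 of the 5 members passed in the settings run. The lowest Pearson p over 25 libraries was that of miR-485-5p (permutation p = 0.181, adjusted p = 0.668).

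Among libraries with at least 10 counts of the member, 0 relations to a list passed. The r largest in size was that of miR-134-5p with the leukocyte list, at -0.682 (permutation p = 0.00276, adjusted p = 0.0621) and rho = -0.494 (permutation p = 0.0393) over 18 libraries. It was at r = -0.292 without the 2 farthest libraries. The lowest p was that of miR-379-5p with the connective tissue list, at r = -0.657 (permutation p = 0.0012, adjusted p = 0.0540) and rho = -0.592 (permutation p = 0.00567) over 21 libraries, and at r = -0.453 without the 2 farthest.

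Brain and nerve are among the tissues with the highest known levels of this cluster, so their markers were listed. Of 5 nerve and brain miRNAs 2 had a count, and miR-124-3p, miR-9a-3p and miR-219a-5p were at 0. The list took 0% to 0.101% of trained and 0% to 0.114% of sedentary libraries, with a median of 0% in both. Red cell markers miR-451-5p and miR-144-3p were at 0 in all libraries. Of 5 leukocyte miRNAs 2 had a count, at 0% to 0.114% of trained and 0% to 0.238% of sedentary libraries. The smooth muscle list took 0.805% to 3.41% and 0.828% to 5.49%. Of the 2 endothelial miRNAs 1 had a count, miR-126a-3p, at 0.152% to 0.855% and 0.249% to 1.80%, and miR-126a-5p was at 0.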

How the data were processed

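Raw counts per mature miRNA were deposited by the authors, with empty cells read as 0. The authors' second deposited table holds a signal, the count divided by 1 size factor per library (largest relative deviation 4.86e-10). Per the submitters' processing notes, fastp 0.20.0 and DESeq2 1.36 were used. Aligner, counting tool, strand setting, build and annotation were not given in the sources used here. Coordinates are therefore left out. RefSeq tables of GRCr8 gave sequences and the order of hairpins.

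Libraries were grouped by title. No 2 libraries of a group were copies, since chi-square divided by its degrees of freedom was at least 20.7 in all 144 pairs. Total counts ranged from 12181 to 202388. The test was edgeR 4.0.16 (R 4.3.3), quasi-likelihood on raw counts with TMM factors, after filterByExpr (minimum count 10, minimum total 15) kept 76 entries. DESeq2 1.42.0 and limma-voom (limma 3.58.1) were alternatives. Log2 CPM for correlations used a prior count of 2, with 100000 permutations (numpy 2.4.6). Fisher's test used scipy 1.17.1. The edgeR and permutation scripts were tested on simulated data.

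Members entering the fit were named with values, as were the 10 most abundant others and any past the threshold. miR-431, miR-434-5p, miR-412-5p, miR-540-3p, miR-770-5p and the entries named at 0 were chosen after their values were seen. The members and lists were chosen with earlier results of these data known.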

Additional observations from a re-analysis of the deposited data

How the results depend on the processing

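Of 12 other settings, 11 called 0 entries and 0 members. The exception was no filter on low counts, with 66 entries and 12 members, which fits 260 entries in place of 76. Detection with at least 10 counts or at equal depth called 0 members. Correlations called 0 pairs of members in 5 other settings. Of the 45 relations, 1 had passed, and 2 passed with total counts only, 1 without the 2 farthest libraries (that of miR-541-5p with the muscle fibre list) and 0 at title numbers 1 to 13, at 14 to 32 or among libraries with at least 10 counts. The call of miR-485-5p with connective tissue miRNAs held in 1 of these 5 settings, total counts only. Its r was 0.650 in that setting and 0.619 without the 2 farthest libraries. At title numbers 1 to 13 it was 0.697, at 14 to 32 0.518, and with at least 10 counts 0.303.

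Fold changes of miR-541-5p, miR-134-5p and miR-379-5p were negative in all 12 other settings, from -2.42 to -0.21, -2.81 to -0.42 and -0.80 to -0.12. miR-127-3p was at -0.098 with total counts only, -0.028 with log2 total count as covariate and -0.0024 with title number as covariate. In the other settings it was positive, up to 0.45 with limma-voom (SE 0.51). miR-485-5p was at -1.18 with limma-voom, -0.067 with total counts only and -0.070 at title numbers 1 to 13. In the other settings it was positive, up to 0.21 at title numbers 14 to 32. The cause of the changes in sign was not tested. Scaling by total counts moved the median of all entries from -0.0080 to -0.29, and by DESeq2 size factors to -0.16, and the 5 members went from 2 higher and 3 lower to 0 and 5 with total counts. All 76 entries then went from 37 higher and 39 lower to 19 and 57.

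When each of the 25 libraries was left out, 0 entries and 0 members were called each time. Ranges were -0.19 to 0.26 for miR-127-3p (negative in 8), -0.26 to 0.41 for miR-485-5p (negative in 6), -1.72 to -0.80 for miR-541-5p, -1.13 to -0.35 for miR-134-5p and -0.84 to -0.025 for miR-379-5p. The difference in cluster share, -0.498 percentage points, ranged from -0.697 to -0.317, and that in members with a count, -0.692, from -1.24 to -0.25.

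No paired analysis was possible because the trained and sedentary libraries share no replicate number. In the edgeR test of all 25 libraries, the 95% intervals of members other than miR-127-3p include a 2-fold decrease. Those of miR-134-5p and miR-485-5p include a 2-fold increase as well. In some other settings the interval of miR-127-3p also included a 2-fold increase. These were limma-voom (-0.58 to 1.47), title numbers 14 to 32 (-0.997 to 1.006) and the fit without sedentary library 8 (-0.53 to 1.06).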
